A study of Mus musculus with 12 samples.

Results

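The 10 collagen genes described here build no fibrils of their own: Col6a1, Col6a2, Col6a3, Col6a5, Col6a6, Col12a1, Col14a1, Col8a1, Col15a1 and Col26a1. They were taken by symbol from the 55453 genes counted, and the 10 genes were chosen with earlier results of these same mice in view, so every test of them given here describes the values and is not independent evidence of their direction. All 10 had enough counts to be among the 18311 genes tested. Bulk RNA-Seq was run on the skin of 12 C57BL/6 mice, 3 in each of 4 groups. The methods of the study describe the knockouts as female and 8 to 12 weeks old, and state neither sex nor age for WT mice. They call all control mice littermates, and the sample labels give no litter. WT PBS and WT BLM mice had an intact Thy-1 gene, and KO PBS and KO BLM mice lacked Thy-1, a surface glycoprotein of fibroblasts and other cells. PBS or bleomycin (BLM, a DNA-damaging drug that causes dermal fibrosis), at 10 mg/kg per day, was injected under the skin of the back each day, over a course of at most 14 days, and skin was taken on day 21. The knockout had been backcrossed to C57BL/6 for at least 10 generations. The comparisons ask how these collagens changed with bleomycin in each genotype and whether the genotypes differed.

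Collagen VI is a beaded microfilament that surrounds cells and links them to the interstitial matrix. Its core unit holds an α1 chain (Col6a1), an α2 chain (Col6a2) and a longer chain, mostly α3 (Col6a3). The α5 (Col6a5) and α6 (Col6a6) chains resemble α3 and can take its place, and their proteins have a restricted distribution in skin. Collagens XII (Col12a1) and XIV (Col14a1) are FACITs, fibril-associated collagens with interrupted triple helices, which sit on the surface of collagen I fibrils. Collagen VIII (Col8a1 with Col8a2) is a short-chain, network-forming collagen known from vessel walls and the cornea. Collagen XV (Col15a1) carries chondroitin sulfate and lies next to basement membranes of muscle and capillaries. Col26a1 encodes a little-studied collagen with short helical parts that was first described in reproductive tissue.

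RefSeq promoter windows (GRCm38.p6) were found for 7 of the 10 genes, and 5 stretches are shown. The first 3 are those of the collagen VI genes whose mRNAs moved together, and the others belong to the collagen VI chain that fell and to the gene with the largest rise. Each stretch lies outside the gene, ends at the base before the GENCODE gene boundary, is written 5′ to 3′ on the minus strand, on which all 5 genes lie, and is cut short where the RefSeq window runs into the gene. Capitals mark GC boxes (GGGCGG on either strand).
Col6a1, chr10:76726169-76726294, 126 bases: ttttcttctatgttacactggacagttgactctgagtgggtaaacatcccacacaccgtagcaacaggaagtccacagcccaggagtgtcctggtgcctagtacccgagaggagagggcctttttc
Col6a2, chr10:76623631-76623880, 250 bases: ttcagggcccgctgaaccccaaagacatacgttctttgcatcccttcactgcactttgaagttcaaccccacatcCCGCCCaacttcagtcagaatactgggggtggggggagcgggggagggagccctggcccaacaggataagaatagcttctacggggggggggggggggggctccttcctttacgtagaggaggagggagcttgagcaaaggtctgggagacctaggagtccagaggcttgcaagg
Col6a3, chr1:90843972-90844221, 250 bases: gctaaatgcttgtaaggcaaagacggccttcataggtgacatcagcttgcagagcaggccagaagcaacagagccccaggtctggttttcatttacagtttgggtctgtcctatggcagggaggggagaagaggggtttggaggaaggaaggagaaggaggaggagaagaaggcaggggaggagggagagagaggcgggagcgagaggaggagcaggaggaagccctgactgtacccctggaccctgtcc
Col6a6, chr9:105828161-105828335, 175 bases: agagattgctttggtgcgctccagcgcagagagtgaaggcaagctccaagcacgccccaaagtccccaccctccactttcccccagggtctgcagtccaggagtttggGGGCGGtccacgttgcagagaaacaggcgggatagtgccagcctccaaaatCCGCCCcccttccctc
Col8a1, chr16:57754738-57754987, 250 bases: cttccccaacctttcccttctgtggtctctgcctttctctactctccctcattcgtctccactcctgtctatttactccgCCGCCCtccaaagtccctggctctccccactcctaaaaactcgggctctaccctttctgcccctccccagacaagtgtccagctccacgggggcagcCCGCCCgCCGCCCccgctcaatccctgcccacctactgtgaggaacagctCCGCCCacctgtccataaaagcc
The stretch before Col8a1 held 4 GC boxes, that before Col6a6 held 2, that before Col6a2 held 1, and those before Col6a1 and Col6a3 held 0. Of all 32851 RefSeq windows, 32.7% held a GC box in the same 250 bases, 20.2% in the first 175 and 13.5% in the first 126. None of the 5 stretches held a TATA box, searched as TATAAA on either strand. Of all windows, 12.4% hold it in 250 bases, 8.22% in the first 175 and 6.26% in the first 126. The same was true of the CCAAT box (33.8%, 24.1% and 16.9% at these lengths). An AP-1 site, with any base in the middle of TGANTCA, was also found in none of the 5 (6.75%, 4.78% and 3.24%). The SMAD palindrome GTCTAGAC was in none of them (0.167%, 0.128% and 0.11%). No marked motifs overlapped, and a match or its absence describes only these letters.

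Library totals ran from 26473700 to 38890450 counts, and values are given as CPM (read counts per 1000000 reads of the library, after scaling between libraries). Thy1 was counted at 104 to 150 CPM in WT PBS, 231 to 416 in WT BLM, 45.6 to 96.9 in KO PBS and 84.7 to 128 in KO BLM mice, so reads of the targeted gene were still counted in the knockout libraries. The difference was -1.69 ± 0.31 on the log2 scale in KO BLM against WT BLM (adjusted p = 0.112, edgeR) and -0.75 ± 0.30 in KO PBS against WT PBS (adjusted p = 0.224, edgeR), and gene counts do not show which part of a gene was read, so the groups are called by their labels. Markers of growing hair and of skeletal muscle set mice apart within groups. The mean log2 CPM of 23 growing-hair genes was 9.74 to 10.32 in WT PBS mice and 0.16 to 3.87 in WT BLM mice. In KO PBS mice it was 10.29 in mouse 136, -0.34 in mouse 137 and 2.30 in mouse 139, and in KO BLM mice it was 9.24 in mouse 141, 5.55 in mouse 143 and 6.51 in mouse 144. The mean of 16 skeletal muscle genes was 8.25 to 8.53 in WT PBS, 9.96 to 11.06 in WT BLM, 8.68 to 10.7 in KO PBS and 9.17 to 9.90 in KO BLM mice. Of the marker lists for fibroblasts, pericytes and smooth muscle, endothelium, skeletal muscle, adipocytes, macrophages, keratinocytes, hair and Schwann cells, no gene in the file was at 0 in every mouse. In whole skin, fewer cells of a type and less RNA per cell cannot be told apart.

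In WT PBS skin, the collagen VI core chains led the 10 genes in CPM per kilobase of transcript, a scale that corrects for length. Col6a1 stood at 63.5 ± 4.42 CPM per kb (SD, n = 3) and Col6a2 at 61.9 ± 4.91, and their ranges overlapped. Col15a1 (29.3 ± 3.11) and Col6a3 (27.1 ± 3.17) followed and also overlapped each other. The FACITs Col14a1 (14.9 ± 2.97) and Col12a1 (11.6 ± 1.58) came next and overlapped. Col8a1 (1.82 ± 0.831) and Col6a6 (1.81 ± 0.202) overlapped far below them, and Col26a1 (0.413 ± 0.107) and Col6a5 (0.301 ± 0.0344) were lowest and overlapped. In WT BLM skin Col8a1 stood at 31.4 ± 6.71 CPM per kb, within the range of Col15a1 (35.5 ± 11.4) and Col14a1 (23.3 ± 21.3), whereas Col6a6 (0.807 ± 0.119) had dropped to ninth of the 10.

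**Figure D1:**
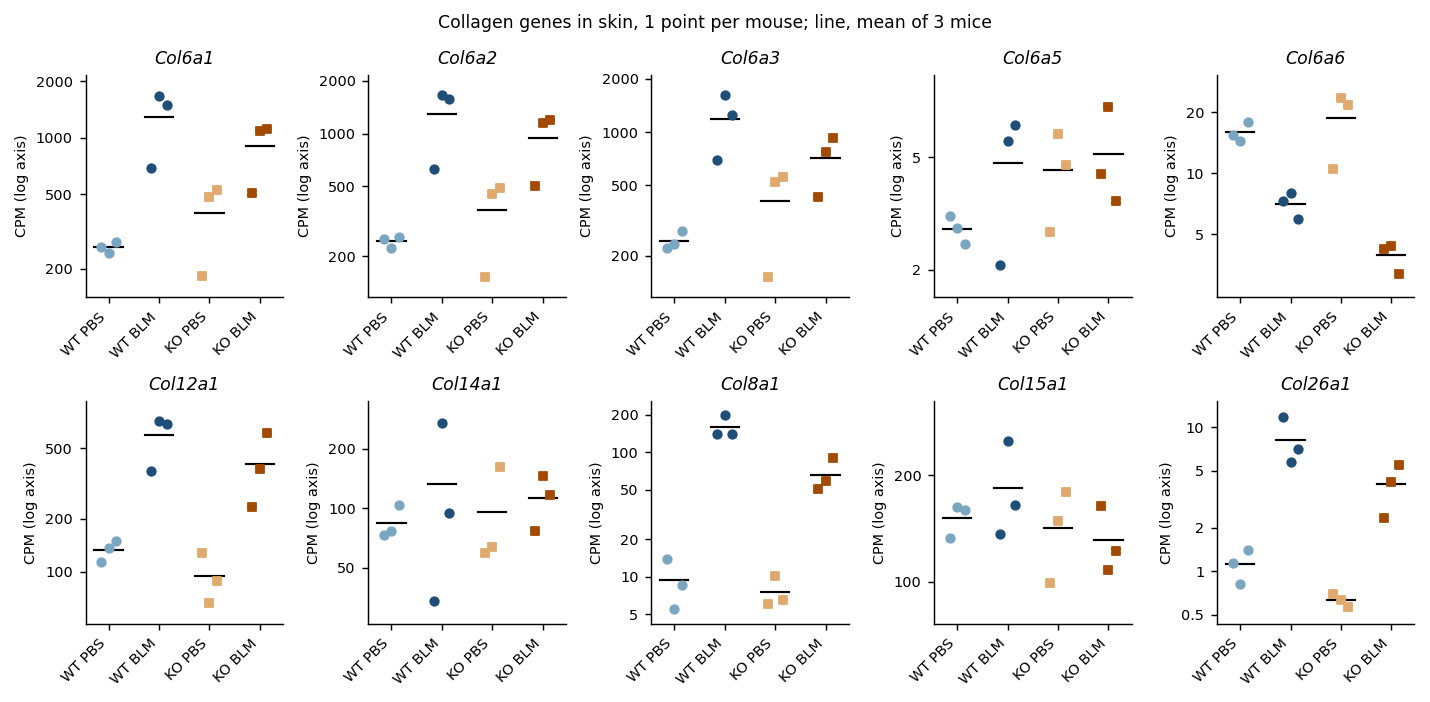
CPM on a log axis for each of the 10 genes, with 1 point per mouse, 4 groups on the x axis and a line at the mean of 3 mice. Col8a1, Col26a1 and Col12a1 were higher in every bleomycin mouse than in any PBS mouse, and Col6a6 was lower in every bleomycin mouse. Within WT skin alone, 5185 of the 18311 genes tested were higher in every bleomycin mouse and 5258 lower. Within KO skin, 19.3% of all genes had groups that did not overlap.

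With bleomycin, 6 of the 10 genes rose and 1 fell in WT skin, and 2 rose and 1 fell in KO skin (edgeR's quasi-likelihood test, adjusted p under 0.05 over all genes tested). Col8a1 and Col26a1 rose and Col6a6 fell in both genotypes. The 3 collagen VI core chains and Col12a1 rose in WT skin, and Col6a5, Col14a1 and Col15a1 passed the test in neither genotype. The background differed widely between genotypes: 34.0% of all genes tested passed in WT BLM against WT PBS, and 0.306% in KO BLM against KO PBS. The median log2 fold change of the 10 genes was 2.22 in WT skin, where that of all genes tested was 0.018, and 0.99 in KO skin, where that of all genes was -0.007. In KO skin the count was 0 when any of KO PBS mouse 139, KO BLM mice 143 and 144 or WT PBS mice 159 and 161 was left out or when only the 2 KO groups were fitted, and 1, Col8a1, without KO PBS mouse 137 or WT PBS mouse 160. In each fit with a count of 0, 0 of all genes tested passed as well. Without mouse 137, 14 of 18708 genes passed, and without mouse 160, 3 of 18746. Nothing is read from these counts or medians as support, since the genes were chosen on these mice.

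The collagen VI core chains rose together in WT skin. Col6a1 (chr10:76708792-76726168, minus strand, GENCODE M21) was counted at 261, 242 and 278 CPM in WT PBS mice 159, 160 and 161, and at 690, 1671 and 1496 CPM in WT BLM mice 145, 146 and 147. It stood at 183, 481 and 528 CPM in KO PBS mice 136, 137 and 139, and at 509, 1091 and 1111 CPM in KO BLM mice 141, 143 and 144. The WT groups did not overlap, whereas KO BLM mouse 141 lay below KO PBS mouse 139. Groups without overlap were common in WT skin, where 5185 of the 18311 genes tested were higher in every bleomycin mouse and 5258 lower. The share of all genes without overlap was 19.3% in KO BLM against KO PBS and 27.5% in KO BLM against WT BLM. Separations of groups given below are to be read against these values. Col6a1 rose 4.94-fold in WT skin (log2 fold change 2.30 ± 0.47 SE, adjusted p = 0.00834, edgeR). In KO skin the difference was 2.27-fold (1.19 ± 0.45, adjusted p = 0.189, edgeR) and did not pass the test.

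Col6a2 (chr10:76595762-76623630, minus strand) was counted at 252, 223 and 259 CPM in WT PBS mice and at 630, 1669 and 1580 in WT BLM mice, in the same order of mice. KO PBS mice held 152, 452 and 493 CPM, and KO BLM mice 500, 1148 and 1192. Its groups overlapped in neither genotype, although KO BLM mouse 141 exceeded KO PBS mouse 139 by only a narrow margin. Col6a2 rose 5.29-fold in WT skin (2.40 ± 0.52, adjusted p = 0.0101, edgeR) and was 2.59-fold higher without passing the test in KO skin (1.37 ± 0.50, adjusted p = 0.176, edgeR).

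Col6a3 (chr1:90765923-90843971, minus strand) was counted at 222, 235 and 276 CPM in WT PBS and at 699, 1626 and 1255 CPM in WT BLM mice. In KO PBS mice it stood at 152, 521 and 558 CPM, and in KO BLM mice at 428, 775 and 927. Mouse 136 was the lowest of all 12 mice for each of the 3 chains, and among the bleomycin mice mouse 141 was the lowest. Col6a3 rose 4.89-fold in WT skin (2.29 ± 0.49, adjusted p = 0.0102, edgeR), and the KO value, with overlapping groups, was 1.73-fold (0.79 ± 0.47, adjusted p = 0.363, edgeR).

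The α5 and α6 chains behaved otherwise. Col6a6 (chr9:105687809-105828160, minus strand) was counted at 15.4, 14.5 and 17.9 CPM in WT PBS mice and at 7.32, 7.99 and 5.94 CPM in WT BLM mice. It was 10.5, 23.6 and 21.8 CPM in KO PBS mice and 4.22, 4.40 and 3.18 CPM in KO BLM mice. Every bleomycin mouse lay below every PBS mouse, and the 3 KO BLM mice lay below all WT BLM mice. In WT skin 5258 of the 18311 genes tested were likewise lower without overlap. Groups of all genes did not overlap for 19.3% in KO skin and for 27.5% between the bleomycin groups. Col6a6 fell 2.25-fold in WT skin (-1.17 ± 0.28, adjusted p = 0.0143, edgeR) and 4.74-fold in KO skin (-2.24 ± 0.29, adjusted p = 0.0305, edgeR). Without WT BLM mouse 147 the fall in WT skin no longer passed the test. Gm38314, a gene model of unclear status on the opposite strand, shares 63 bases, or 0.687%, of the exons of Col6a6.

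Col6a5 (chr9:105856078-105960643, minus strand), which neighbours Col6a6 on chromosome 9 with a gap of 27917 bases, was low throughout. It was counted at 3.11, 2.80 and 2.47 CPM in WT PBS and 2.08, 5.71 and 6.50 CPM in WT BLM mice. KO PBS mice held 2.73, 6.06 and 4.68 CPM, and KO BLM mice 4.35, 7.54 and 3.50. The groups of each comparison overlapped, and neither the WT value (0.77 ± 0.45, adjusted p = 0.195, edgeR) nor the KO value (0.19 ± 0.44, adjusted p = 0.833, edgeR) passed the test. The pair lies 61.8 and 61.6 Mb, and Col12a1 35.6 Mb, from Thy1 on the same chromosome.

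**Figure D2:**
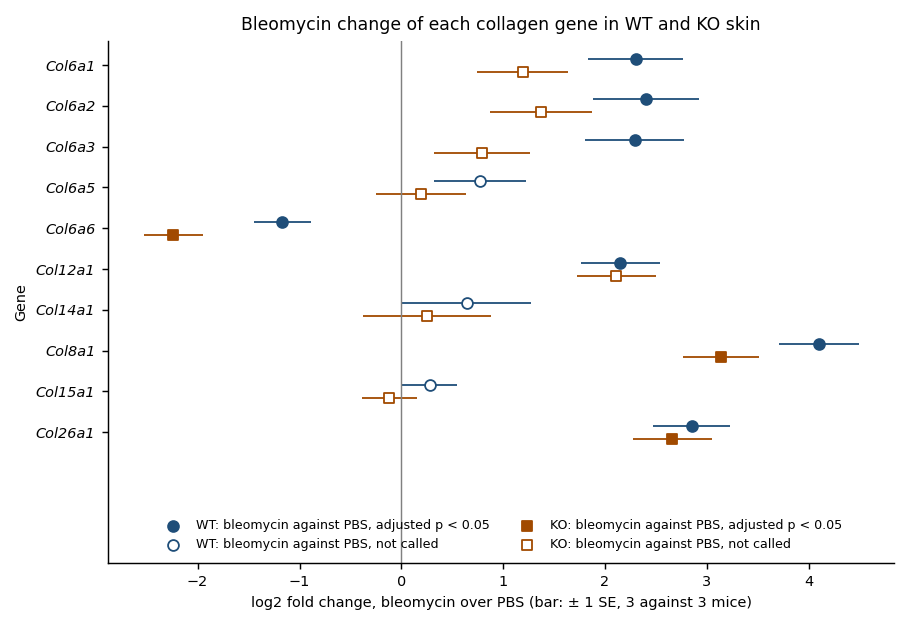
Log2 fold change of bleomycin over PBS for each gene in WT (circles) and KO skin (squares), with bars of 1 SE from edgeR and filled symbols for an adjusted p under 0.05. Col8a1 had the largest rise in both genotypes (4.10 and 3.14), and Col6a6 was the only gene below 0 that passed the test.

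Ratios of the collagen VI mRNAs, taken per length within each mouse, set the core chains apart from α5 and α6. Col6a1 over Col6a2 lay between 0.898 and 1.17 in all 12 mice, and Col6a3 over Col6a1 between 0.324 and 0.494. Thus, while the level of Col6a1 ranged from 183 to 1671 CPM, the proportions of the 3 mRNAs varied far less. Smaller shifts between groups remained. Col6a1 over Col6a2 was 0.898 to 0.98 in KO BLM mice, below KO PBS mice (1.03 to 1.17) and WT PBS mice (0.998 to 1.05). Col6a3 over Col6a1 was 0.324 to 0.383 in KO BLM mice, below WT PBS mice (0.387 to 0.452) but overlapping KO PBS mice (0.378 to 0.494). In WT skin the PBS and bleomycin groups overlapped for both ratios. Across the 12 mice, Pearson's r of log2 CPM was 0.998 for Col6a1 with Col6a2, 0.986 for Col6a1 with Col6a3 and 0.98 for Col6a2 with Col6a3, as a description over mice that share groups. Col6a1 and Col6a2 lie 85161 bases apart on chromosome 10, on the same strand, and Col6a3 is on chromosome 1.

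Col6a5 and Col6a6 together amounted to 7.48% to 8.46% of Col6a3 in WT PBS mice and to 0.844% to 1.36% in WT BLM mice. The share was 4.81% to 8.84% in KO PBS and 0.718% to 2.0% in KO BLM mice. PBS and bleomycin mice did not overlap in either genotype. Col6a6 over Col6a5 was 5.22 to 7.66 in WT PBS, 0.967 to 3.73 in WT BLM, 4.09 to 4.93 in KO PBS and 0.618 to 1.03 in KO BLM mice, so that every bleomycin mouse lay below every PBS mouse. These ratios use the genes' own selected values and were not tested.

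**Figure D3:**
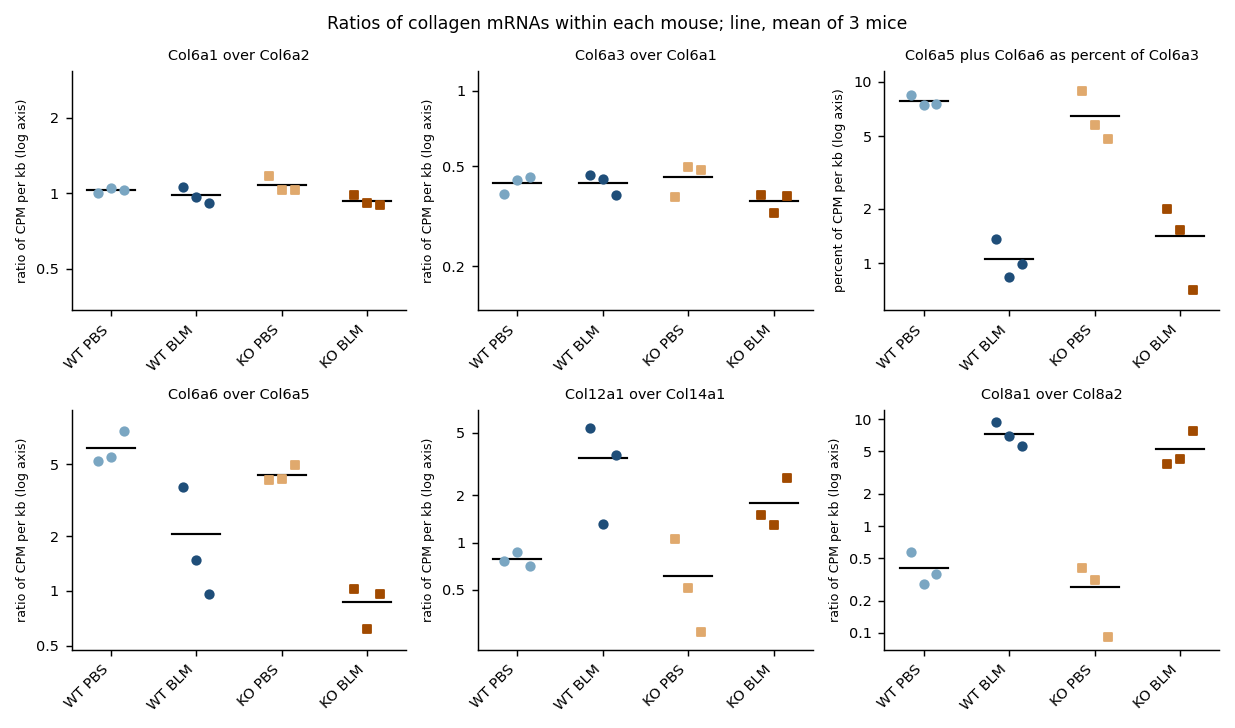
Ratios of CPM per kb within each mouse on log axes, with 1 point per mouse and a line at the mean of 3 mice. The 2 ratios among the core collagen VI chains stayed within a narrow band in all groups, whereas Col6a5 plus Col6a6 against Col6a3 fell and Col8a1 against Col8a2 rose in all bleomycin mice.

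The FACITs differed from each other. Col12a1 (chr9:79598991-79718831, minus strand), which is deposited where tissue bears load or heals, was counted at 114, 136 and 150 CPM in WT PBS and at 371, 713 and 690 CPM in WT BLM mice. It was 128, 66.4 and 89.2 CPM in KO PBS and 233, 381 and 610 CPM in KO BLM mice. No bleomycin mouse overlapped a PBS mouse of either genotype. Higher values without overlap were found in WT skin for 5185 of the 18311 genes tested. In KO skin 19.3% of all genes had groups that did not overlap. Col12a1 rose 4.44-fold in WT skin (2.15 ± 0.39, adjusted p = 0.00594, edgeR). The KO value was nearly as large, 4.31-fold (2.11 ± 0.39), with an adjusted p of 0.0541 by edgeR that narrowly missed the threshold.

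Col14a1 (chr15:55307750-55520803, plus strand), the other FACIT, was counted at 73.6, 76.8 and 104 CPM in WT PBS and at 34.1, 268 and 94.7 CPM in WT BLM mice. KO PBS mice held 59.8, 64.1 and 162 CPM and KO BLM mice 77.0, 146 and 117. WT BLM mice spanned 7.85-fold and enclosed all other values, and neither difference passed the test (WT 0.64 ± 0.63, adjusted p = 0.441, KO 0.25 ± 0.63, adjusted p = 0.849, edgeR). Col12a1 over Col14a1 per length was 0.709 to 0.871 in WT PBS and 1.31 to 5.37 in WT BLM mice. It was 0.271 to 1.06 in KO PBS and 1.29 to 2.56 in KO BLM mice, so that every bleomycin mouse lay above every PBS mouse.

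Col8a1 (chr16:57624258-57754737, minus strand) had the largest rise of the 10 genes. It was counted at 13.9, 5.46 and 8.64 CPM in WT PBS and at 141, 200 and 140 CPM in WT BLM mice. KO PBS mice held 6.08, 10.1 and 6.44 CPM and KO BLM mice 50.4, 59.1 and 89.6. The lowest bleomycin mouse was above the highest PBS mouse in each genotype, and all KO BLM mice lay below all WT BLM mice. In WT skin 5185 of the 18311 genes tested were likewise higher without overlap. Groups of all genes did not overlap for 19.3% in KO skin and for 27.5% between the bleomycin groups. Col8a1 rose 17.2-fold in WT skin (4.10 ± 0.39, adjusted p = 0.00215, edgeR) and 8.79-fold in KO skin (3.14 ± 0.37, adjusted p = 0.0305, edgeR). Its partner chain Col8a2 did not pass the test in WT (0.03 ± 0.44, adjusted p = 0.961, edgeR) or KO skin (-1.61 ± 0.45, adjusted p = 0.134, edgeR). Col8a1 over Col8a2 per length was 0.285 to 0.577 in WT PBS and 0.0906 to 0.403 in KO PBS mice, and 5.64 to 9.40 in WT BLM and 3.79 to 7.71 in KO BLM mice.

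Col26a1 (chr5:136741759-136883209, minus strand) was the scarcest of the rising genes. It was counted at 1.15, 0.822 and 1.40 CPM in WT PBS mice, from 34, 25 and 55 reads, and at 11.7, 5.74 and 7.05 CPM in WT BLM mice. KO PBS mice held 0.698, 0.629 and 0.566 CPM, from 21, 22 and 19 reads, and KO BLM mice 2.36, 4.19 and 5.48. The 4 groups did not overlap in any neighbouring pair, in the order WT BLM, KO BLM, WT PBS, KO PBS. Col26a1 rose 7.20-fold in WT skin (2.85 ± 0.38, adjusted p = 0.00329, edgeR) and 6.32-fold in KO skin (2.66 ± 0.39, adjusted p = 0.0341, edgeR).

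Col15a1 (chr4:47208161-47313167, plus strand) had group means between 131 and 184 CPM. It was counted at 133, 163 and 159 CPM in WT PBS, 136, 250 and 165 in WT BLM, 98.9, 148 and 179 in KO PBS, and 164, 108 and 122 in KO BLM mice. All groups overlapped. The WT value was 0.28 ± 0.27 (adjusted p = 0.436, edgeR) and the KO value -0.12 ± 0.27 (adjusted p = 0.834, edgeR). The antisense gene Gm12426 shares 14 bases, or 0.221%, of its exons.

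The genotypes were compared within each treatment. In KO BLM against WT BLM skin, 0 of the 10 genes passed edgeR's test, where 0.0928% of all genes did. At an unadjusted p under 0.05, which 16.6% of all genes had, there were 3, Col6a6, Col8a1 and Col26a1, all lower in KO BLM mice without overlap of the groups. Their log2 differences were -0.85 ± 0.28 (adjusted p = 0.249), -1.27 ± 0.35 (adjusted p = 0.212) and -1.02 ± 0.35 (adjusted p = 0.254, all edgeR). DESeq2 called 1 of the 10, Col8a1 (lower, adjusted p = 0.024, where the range over all alternatives was 0.024 to 0.477), against a background of 3.34%. The core chains had overlapping groups, at -0.51 ± 0.45 for Col6a1, -0.45 ± 0.49 for Col6a2 and -0.75 ± 0.47 for Col6a3. Col12a1 was at -0.54 ± 0.37, Col15a1 at -0.49 ± 0.27, Col14a1 at -0.22 ± 0.63 and Col6a5 at 0.11 ± 0.44. Over all genes tested, 27.5% had groups that did not overlap in this comparison.

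In KO PBS against WT PBS skin, 0 of the 10 genes passed edgeR's test, where 0.0655% of all genes did, and 0 had an unadjusted p under 0.05, where 20.4% of all genes did. DESeq2 also called 0, against a background of 3.83%. The largest differences were -0.84 ± 0.38 for Col26a1, whose groups did not overlap (as for 18.9% of all genes), and 0.75 ± 0.47 for Col6a3, 0.69 ± 0.45 for Col6a5, 0.61 ± 0.45 for Col6a1 and 0.58 ± 0.49 for Col6a2, whose groups overlapped. KO PBS mice 137 and 139 were above all WT PBS mice for the 3 core chains and mouse 136 below all of them.

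The bleomycin responses of the genotypes, which use all 4 groups, were compared directly. For this difference 0 of the 10 genes passed edgeR's test, and of all genes 0 did (a background of 0%, with 5687 genes, or 31.1%, at an unadjusted p under 0.05). Of the 10 genes, 2 had an unadjusted p under 0.05, Col6a3 and Col6a6. DESeq2 called 0 of the 10 against a background of 18.5%. Col6a3 differed by -1.50 ± 0.67 (adjusted p = 0.158, edgeR), which is a smaller rise in KO skin, and Col6a6 by -1.08 ± 0.39 (adjusted p = 0.11, edgeR), which is a deeper fall in KO skin. Col6a1 (-1.12 ± 0.63), Col6a2 (-1.03 ± 0.69) and Col8a1 (-0.97 ± 0.49) had values of like size. Col12a1 (-0.04 ± 0.52) and Col26a1 (-0.19 ± 0.53) had differences near 0 with wide errors. A rise that passed in WT skin and not in KO skin, as for Col6a1, is therefore not shown to differ between genotypes.

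The hair and muscle marker levels moved with these results, and their part was not tested beyond the following values. In WT BLM against WT PBS skin 12 of 23 hair genes fell and 15 of 16 skeletal muscle genes rose, and 10 of 12 macrophage genes rose. These counts stand against the 34.0% of all genes that passed edgeR's test in this comparison. With the hair list mean as a covariate, only Col8a1 of the 10 genes passed in WT skin (log2 fold change 3.76, adjusted p = 0.0378), against a background of 0.0765%. The list mean separates WT PBS from WT BLM mice completely, so that bleomycin and hair growth cannot be told apart within WT skin, and this fit takes the slope of the covariate over all 4 groups. The log2 fold changes that no longer passed were 2.67 for Col12a1 (adjusted p = 0.0877), 2.46 for Col26a1 (adjusted p = 0.154) and -1.83 for Col6a6 (adjusted p = 0.0858, edgeR), against 2.15, 2.85 and -1.17 without the covariate. Those of the core chains dropped to 1.34 for Col6a1 (adjusted p = 0.429), 1.29 for Col6a2 (adjusted p = 0.495) and 1.18 for Col6a3 (adjusted p = 0.52, edgeR), from 2.30, 2.40 and 2.29. In KO skin the same covariate left 6 of the 10 passing, 5 higher and Col6a6 lower, against a background of 9.10%. The skeletal muscle list stood at 10.7 in KO PBS mouse 137 and 10.48 in mouse 139, above all KO BLM mice. Col8a1, Col12a1 and Col26a1 were lower in both mice than in any KO BLM mouse. Whether muscle content bears on any of these collagens was not tested. The core collagen VI chains in mice 137 and 139 were above all other PBS mice, in which the muscle list was 8.25 to 8.68, and Col6a3 in both and Col6a1 in mouse 139 exceeded KO BLM mouse 141. The adjusted p of Col8a1 ranged from 2.95e-25 to 0.0378 over all alternatives in WT skin.

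The counts were also taken without KO PBS mouse 136 and KO BLM mouse 141, an alternative chosen after the data were seen. In WT BLM against WT PBS skin the 10 genes then gave the same 6 higher and 1 lower, against a background of 49.0%. In KO BLM against KO PBS skin 5 rose (Col6a1, Col6a2, Col12a1, Col8a1 and Col26a1) and Col6a6 fell, against a background of 22.3%. For KO BLM against WT BLM Col6a6 alone was called, and lower, against 4.36%. In KO PBS against WT PBS skin Col6a1, Col6a3 and Col6a6 were called higher in KO mice, against 40.9%. The bleomycin responses then differed for Col6a3 and Col6a6, both lower in KO, against 38.6%. The share of all genes called was higher than with all 12 mice in each of these 5 comparisons.

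**Figure D4:**
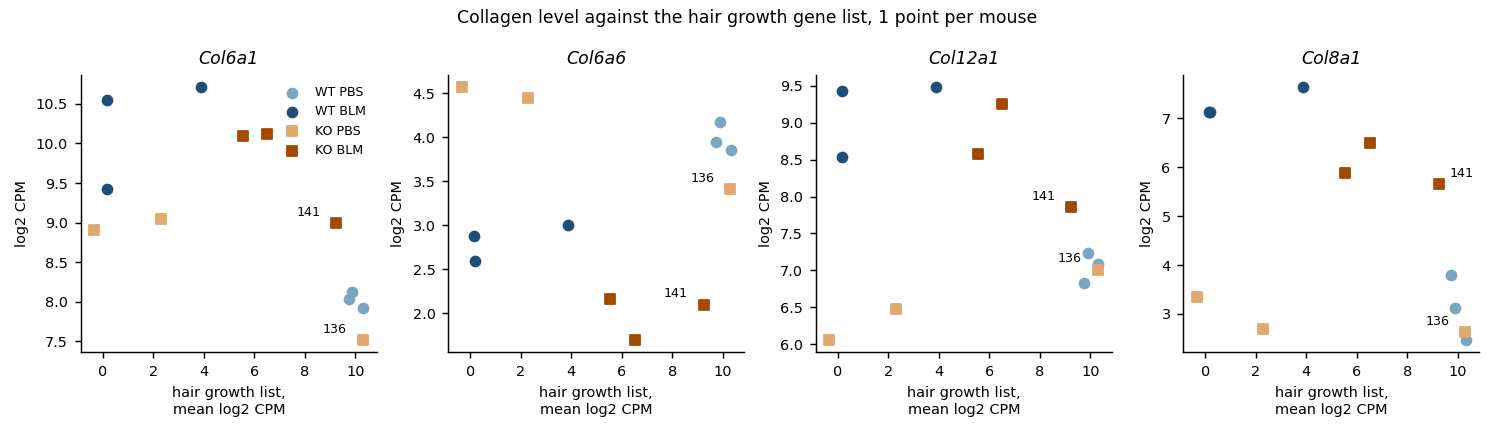
Log2 CPM of Col6a1, Col6a6, Col12a1 and Col8a1 against the mean log2 CPM of 23 growing-hair genes, with 1 point per mouse, coloured by group, and mice 136 and 141 numbered. KO PBS mice 137 and 139 were at -0.34 and 2.30 on the x axis, and WT BLM mice at 0.16 to 3.87. In mice 137 and 139 Col8a1 and Col12a1 were below and Col6a6 above all bleomycin mice. Their Col6a1 (481 and 528 CPM) was above all other PBS mice. These mice differ from WT BLM mice in genotype and treatment, and the part of hair growth was not tested.

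Set against the rest of the family, the 10 genes were not alone in rising. Of the 11 fibrillar collagens, which form the banded fibres of dermis, 9 rose and 0 fell in WT skin, with a median log2 fold change of 1.95. The largest were Col24a1 (3.50 ± 0.58, adjusted p = 0.00487), Col5a1 (2.67 ± 0.49, adjusted p = 0.00626) and Col5a2 (2.37 ± 0.42, adjusted p = 0.00568, edgeR). Of the other 23 non-fibrillar collagens, 21 were tested, and 5 rose and 1 fell, with a median of 0.55. Col25a1, a membrane collagen (2.96 ± 0.54, adjusted p = 0.00626), Col7a1 of the anchoring fibrils (2.19 ± 0.53, adjusted p = 0.0151) and Col28a1 (1.76 ± 0.41, adjusted p = 0.0127) rose most, and Col4a4 of basement membranes fell (-1.76 ± 0.41, adjusted p = 0.0135, edgeR). The test passed 34.0% of all genes in this comparison. In the KO response 0 of these 32 genes passed edgeR's test, where 0.306% of all genes did, 16 had an unadjusted p under 0.05, where 20.0% of all genes did, and 8 passed DESeq2's test, against a DESeq2 background of 6.14%, under which 4 of the 10 described genes passed. DESeq2 called 7 of the 10 in WT skin against a background of 34.2%.

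**Figure D5:**
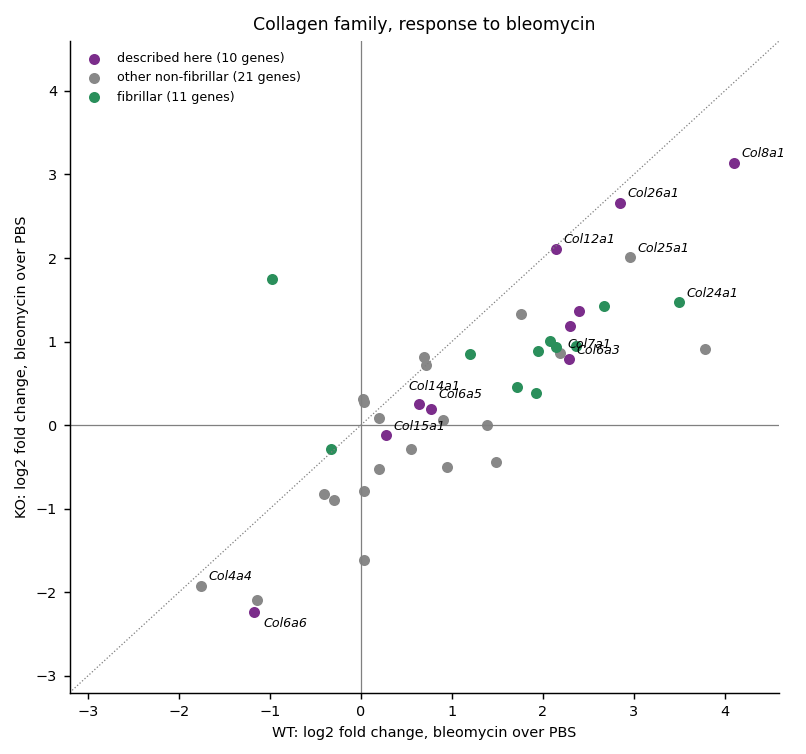
Log2 fold change of bleomycin over PBS in KO skin (y axis) against WT skin (x axis) for the 42 collagen genes tested, coloured by class, with a dotted line where both are equal. Col8a1 and Col26a1 lay at the upper right, and Col6a6 at the lower left with Col4a3 nearest to it and Col4a4 close by. Below the line lay all 10 described genes and most of the fibrillar and of the other non-fibrillar collagens.

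Proteins that bind these collagens were listed as well, and their counts in WT skin are to be read against the 34.0% of all genes that passed. Of 12 collagen VI partners (receptors, proteoglycans and matrix ligands), 5 rose and 0 fell in WT skin, led by fibronectin (Fn1, 2.75 ± 0.36, adjusted p = 0.00329), biglycan (Bgn, 1.78 ± 0.30, adjusted p = 0.00536) and the anthrax toxin receptor Antxr1, a collagen VI receptor (1.46 ± 0.41, adjusted p = 0.0235, edgeR). Of 8 FACIT partners, 3 rose and 0 fell, namely periostin (Postn, 2.90 ± 0.59, adjusted p = 0.00841), tenascin C (Tnc, 2.38 ± 0.57, adjusted p = 0.0142) and lumican (Lum, 1.71 ± 0.60, adjusted p = 0.0484, edgeR). Of 12 fibroblast markers, 1 rose (Mfap5) and 3 fell (Pi16, Dpp4 and Clec3b) in WT skin. The 4 fibroblast genes are named because they are few, after their values were seen. In the KO response edgeR called 0 of the 20 partners (7 at an unadjusted p under 0.05, 3 by DESeq2) and 0 of the 12 fibroblast genes (5 unadjusted, 5 by DESeq2), against backgrounds of 0.306% for edgeR, 20.0% unadjusted and 6.14% for DESeq2.

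The patterns over the 12 mice fell into a few sets. Col8a1 followed Col26a1 (r = 0.954) and Col12a1 followed both (r = 0.92 with Col26a1 and 0.914 with Col8a1). Col6a6 ran against Col12a1 (r = -0.819). These correlations describe 12 mice in 4 groups and partly restate the group differences. Among 13192 other genes, those most like Col6a1 were Serpinh1, the collagen chaperone of the endoplasmic reticulum, and Lrrc17 (r = 0.994 each). Serpinh1 was also among the 2 nearest to Col6a2 (r = 0.99, as was Pdia5) and to Col6a3 (r = 0.992, beside Tvp23a at 0.99).

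The nearest to Col6a5 were the transcription factors Twist1 and Prrx2 (r = 0.928 each), and to Col6a6 Tmeff2 and Rpgrip1l (0.939 each). Col12a1 was followed most closely by Ccn4 and Arhgef7 (0.963 each), Col14a1 by Fbxl7 (0.945) and Gxylt2 (0.93), and Col15a1 by the laminin chain Lamc1 and Gfra2 (0.921 each). Nearest to Col8a1 were Myl4, a myosin light chain of embryonic and atrial muscle (0.982), and Mymk, which drives myoblast fusion (0.98), and nearest to Col26a1 were Ankrd1 (0.979) and Edil3 (0.971).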

How the data were processed

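Skin RNA of 12 mice was sequenced by the authors as stranded, paired-end mRNA libraries. The deposited values are whole-number read counts per gene, not normalized, which the authors then tested with DESeq2. The submitters' processing notes name GRCm38.p6 and MultiQC 1.7. The aligner, counting tool, annotation and use of strand are not given in the sources used here, so reads shared by overlapping genes on opposite strands cannot be assigned.

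Totals were 26473700 to 38890450 counts per mouse (median 31494965). Of 34689 genes with a count, 18311 passed filterByExpr with its defaults, a minimum of 10 counts, scaled to library size, in as many mice as the smallest group holds and a sum of 15. The counts were scaled by TMM and fitted with edgeR 4.0.16 (R 4.3.3), as a quasi-likelihood model of 4 group means over all 12 mice. Benjamini-Hochberg adjustment ran over all genes tested, with a threshold of 0.05. The biological coefficient of variation was 34.9%. With 3 mice against 3, an exact permutation test of a single value cannot go below 0.1, so none was used. Log2 CPM used a prior count of 2. CPM per kilobase used the longest APPRIS principal transcript in GENCODE M21 (GRCm38). The promoter windows are those of RefSeq. The fit was tested on simulated data in which 200 genes changed 4-fold: of these, 144 were recovered (72%) and 10 other genes were called in WT BLM against WT PBS, among 18035 genes.

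The 10 genes, the other lists and the alternatives were chosen with earlier results of these data known. The other lists were written by gene name (1 of 24 hair genes, Krt85, was not used here). All 10 genes are named in every comparison. From each list of other collagens or partners up to 3 called genes with the largest change in each direction are named, and for each of the 10 genes the 2 others with the highest correlation among genes with a mean log2 CPM of at least 1. The alternatives were DESeq2 1.42.0, RLE and upper-quartile scaling, no filter, a mean of at least 1 CPM, a fit of the groups compared alone, each mouse left out in turn and the hair list mean as a covariate. The mice of a group are taken as separate animals from their numbers.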

Additional observations from a re-analysis of the deposited data

How the results depend on the processing

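The count of the 10 genes called stayed within 1.5 times of its value under RLE and upper-quartile scaling, no filter and a mean of at least 1 CPM in all 5 comparisons. In WT skin 7 became 1 with the hair covariate. In KO skin 3 became 0 with only the groups compared, 6 with the hair covariate and 6 without mice 136 and 141, and leaving out 1 mouse gave 0 to 4. The count of 4 came without mouse 136, where 2632 of 18739 genes tested passed, and without mouse 141, where 1162 of 18783 did. In KO BLM against WT BLM 0 became 1 with DESeq2 and 1 without mice 136 and 141 (leaving out 1 mouse, 0 to 1). In KO PBS against WT PBS 0 became 3 without both mice (leaving out 1 mouse, 0 to 1, with 1 only without mouse 136), and for the difference of responses 0 became 2 (leaving out 1 mouse, 0 to 3, with 3 without mouse 136). Without mouse 136, 6870 of 18739 genes tested passed in KO PBS against WT PBS and 7470 for the difference of responses. In KO BLM against WT BLM 1292 passed without that mouse. For the other 32 collagens DESeq2 called 20 against 15 in WT skin, and 8, 1, 1 and 5 against 0 in the other comparisons. The cause was not tested. Fits with 1 mouse left out pool the spread over groups.

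Of 990 log2 fold changes of the 10 genes under alternatives, 900 kept direction and side of the threshold, 22 newly passed, 30 no longer passed and 38 changed direction. None that passed in the fit of all mice changed direction. With the hair covariate, KO BLM against WT BLM became 0.07 for Col6a1 and 0.21 for Col6a2, KO PBS against WT PBS became -0.22 for Col6a1, -0.38 for Col6a2, -0.25 for Col6a3 and -0.31 for Col6a6, and the difference of responses became 0.29 for Col6a1, 0.59 for Col6a2, 0.16 for Col6a3, 0.42 for Col6a5 and 0.31 for Col26a1. Without mice 136 and 141, Col15a1 became 0.11 in KO PBS against WT PBS, and the difference became 0.52 for Col12a1 and 0.17 for Col26a1. Leaving out 1 mouse turned these values, given as ranges: in WT skin Col14a1 -0.40 to 1.09 and Col15a1 -0.01 to 0.45, in KO skin Col6a5 -0.19 to 0.47 and Col15a1 -0.32 to 0.09, in KO BLM against WT BLM Col6a5 -0.28 to 0.40 and Col14a1 -0.67 to 0.82, in KO PBS against WT PBS Col14a1 -0.45 to 0.41, Col8a1 -0.59 to 0.12 and Col15a1 -0.30 to 0.11, and for the difference Col12a1 -0.45 to 0.25, Col14a1 -0.84 to 0.65 and Col26a1 -0.48 to 0.16. No paired analysis was possible because every mouse has its own number and no litter is labelled. Depth limits Col26a1 most, with 19 to 55 reads in PBS mice.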

Other observations

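The collagen IV chains of basement membranes, named here after their values were seen, differed by chain. Col4a1 and Col4a2, the chains of nearly all basement membranes, had log2 fold changes with bleomycin of 0.03 ± 0.33 and 0.02 ± 0.29 in WT skin and of 0.28 ± 0.33 and 0.31 ± 0.29 in KO skin, and passed edgeR's test in neither genotype. Col4a4 fell in WT skin (-1.76 ± 0.41, adjusted p = 0.0135, edgeR) and was at -1.92 ± 0.42 in KO skin (adjusted p = 0.0844). Its partner Col4a3 was at -1.14 ± 0.53 and -2.09 ± 0.55 (adjusted p = 0.114 and 0.119). In KO BLM against KO PBS skin the groups of Col4a3, Col4a4 and Col4a5 did not overlap, as for 19.3% of all genes, with each KO BLM mouse lower. Col4a5 was at -0.40 ± 0.26 in WT and -0.82 ± 0.26 in KO skin (adjusted p = 0.25 and 0.156, edgeR). Col4a6 was at 0.03 ± 0.29 and -0.79 ± 0.29 (adjusted p = 0.935 and 0.185, edgeR), with overlapping groups in both.

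Tenascin X (Tnxb), which links collagen fibrils through the FACITs, is named here after its values were seen. With bleomycin it was at -0.05 ± 0.47 in WT skin (adjusted p = 0.946, edgeR). In KO skin it was at -1.95 ± 0.49 (adjusted p = 0.111, edgeR), where the groups did not overlap, as for 19.3% of all genes. KO PBS mice 136, 137 and 139 held 200, 470 and 539 CPM, and KO BLM mice 56.4 to 132. The difference between the responses was -1.90 ± 0.68 (adjusted p = 0.105, edgeR), in a comparison where 0 of all genes passed.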
